A study of Mus musculus with 33 samples.

Results

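Scx, Mkx and Tnmd, 3 genes that mark successive stages of tendon formation, were followed while mouse embryonic stem cells were induced towards tendon or fibrocartilage. The genes were taken by name from a table of 17120 genes, all 3 were present, and each was measured in 33 RNA-seq libraries that make up 11 groups of 3. The cells came from mouse embryonic stem cell lines that carry the ScxGFP transgene, a fluorescent reporter driven by Scx regulatory sequence. They were aggregated with the BMP inhibitor LDN-193189 and then received the Wnt agonist CHIR together with LDN-193189, which gave paraxial mesoderm (PM) on day 6 (D6). In all induced groups the medium then contained TGFβ1, the hedgehog agonist SAG and FGF2. The tendon protocol added CD1530, which activates the gamma form of the retinoic acid receptor. The fibrocartilage protocol added AGN 193109 (AGN), which lowers the activity of these receptors below their resting state, at a different concentration. RNA was taken 0.25, 0.75, 1.5, 2.5 and 4 days into each induction, so the days are written D6.25, D6.75, D7.5, then D8.5 and lastly D10. PM libraries were made from embryoid bodies and all induced libraries from monolayers, so induction and culture format cannot be told apart in the step from D6 to D6.25. No group with TGFβ1, SAG and FGF2 but neither ligand was analysed here, so CD1530 was compared with AGN and neither with an untreated culture. Whether AGN was also present before D6, and whether a replicate number marks a cell line, is not stated in the sources used here.

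Scx (Scleraxis) is a basic helix-loop-helix transcription factor and the classic early marker of tendon progenitors. Mkx (Mohawk) is an atypical homeobox transcription factor of the TALE class that is known for its part in type I collagen production and tendon maturation. Tnmd (Tenomodulin) is a membrane glycoprotein of differentiated tendon and ligament cells, and Scx is known to act upstream of it. TGFβ is a strong inducer of Scx in limb and trunk mesenchyme, and retinoic acid signalling is known to restrain cartilage formation.

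In the GENCODE annotation of GRCm38, Scx (ENSMUSG00000034161) lies on chromosome 15, from 76457452 to 76459458 on the plus strand, with 2 transcripts and 2007 exon bases. Scx sits inside Bop1, a ribosome biogenesis gene on the minus strand from 76452989 to 76477277, and the exons of the genes share 0 bases. Tnmd (ENSMUSG00000031250) lies on chromosome X, from 133850980 to 133865577 on the plus strand, with 1 transcript, 1353 exon bases and no overlapping gene. Tnmd was the member with no counts above the floor before induction, and its upstream sequence was the one found among RefSeq's promoters. The 222 bases that end at the last base before the annotated Tnmd start, chrX:133850758-133850979 of GRCm38 on the plus strand, are printed here from RefSeq, all in lower case because no searched motif was found in them.
Tnmd upstream sequence: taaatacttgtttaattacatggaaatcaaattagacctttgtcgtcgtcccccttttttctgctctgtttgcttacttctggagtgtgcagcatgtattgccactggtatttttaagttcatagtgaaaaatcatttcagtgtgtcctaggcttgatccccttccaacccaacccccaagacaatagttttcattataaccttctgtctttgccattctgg
The motifs searched on both strands were CANNTG, the E-box core bound by helix-loop-helix proteins, and AGGTCA, the core hexamer of nuclear receptor sites. The SMAD-binding element CAGAC and the palindromic SMAD site GTCTAGAC were searched as well. The Tnmd window held 0 matches of each of these motifs, and shorter parts of them were not searched. For comparison, 32851 promoter windows were cut to their first 222 bases, which need not end at the annotated start of each gene. Of these, 62.4% held CANNTG, 12.6% held AGGTCA, 38.8% held CAGAC and 0.161% held GTCTAGAC.

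Total counts were between 17.1 M and 22.8 M per library in 32 libraries, and AGN D8.5 replicate 1 reached 38.1 M. The replicate columns all differed from each other, and the biological coefficient of variation was 4.68%. Levels are given as CPM, counts divided by the effective library size and scaled to a common total, with TMM as the normalization to the bulk of genes, as mean ± SD of 3 libraries. Differences are log2 fold changes with their standard error (SE) from edgeR's quasi-likelihood test over all 17120 genes, and a gene was called at a Benjamini-Hochberg adjusted p under 0.05. These cultures are mixtures, so more cells that express a gene and more RNA of it per cell cannot be told apart. The 6 paraxial mesoderm markers summed to 133 to 138 CPM in PM, of which Tbx6 averaged 9.56 CPM and Msgn1 3.38 CPM, beside 701 CPM of the pluripotency gene Pou5f1.

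Scx and Mkx were above their PM level within 0.25 days of induction under either ligand, whereas Tnmd passed its counting floor at D7.5. Scx was highest at D8.5 and then fell, and Mkx and Tnmd were highest at D10. At D8.5 and D10, Scx and Tnmd were higher in AGN than in CD1530. At D7.5 and D8.5, Mkx was higher in CD1530, and at D10 the Mkx levels of the ligands were close.

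**Figure D1:**
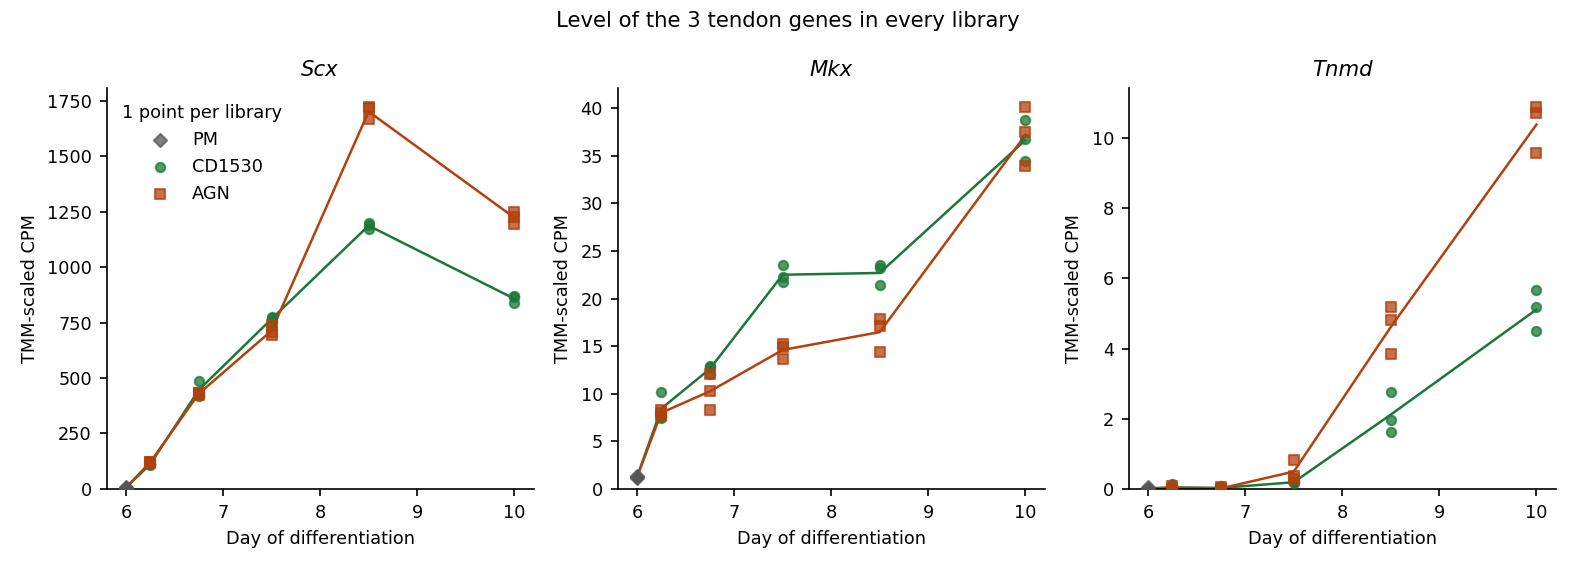
TMM-scaled CPM of Scx, Mkx and Tnmd (linear axes that start at 0) against the day of differentiation, with 1 point for each of the 33 libraries and lines through the group means from PM through each ligand. Scx turns down after D8.5 in both courses, Mkx shows its smallest step between D7.5 and D8.5 and then rises, and Tnmd leaves 0 at D7.5 and is highest at D10.

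Scx was already present in PM, at 7.18, 6.56 and 5.49 CPM in the 3 libraries (6.41 ± 0.85, SD, n = 3). On D6.25 its level was 110.0, 111 and 112 CPM in CD1530 and 121, 120.4 and 119 CPM in AGN. Every induced library was thus above every PM library by more than an order of magnitude. The step from D6 to D6.25 measured 4.11 ± 0.06 (log2, SE) in CD1530 (adjusted p = 2.36e-39, edgeR) and 4.22 ± 0.06 in AGN (adjusted p = 8.78e-40, edgeR). In this step 2 of the 3 members, Scx and Mkx, were called in CD1530, where 67.8% of all genes were, and the same 2 in AGN, where 68.1% of all genes were.

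Scx continued upward over the next day. On D6.75 the libraries held 487, 418 and 433 CPM in CD1530 and 426, 431 and 432 CPM in AGN, and the ligands overlapped. On D7.5 they held 775, 770.2 and 754 CPM in CD1530 and 692, 707 and 741 CPM in AGN, with every CD1530 library above every AGN library. The D6.25 to D6.75 step was 2.00 ± 0.04 in CD1530 and 1.84 ± 0.04 in AGN, and 2 of 3 members were called in each, beside 45.9% and 43.7% of all genes. The D6.75 to D7.5 step was smaller, 0.78 ± 0.04 in CD1530 and 0.73 ± 0.04 in AGN. All 3 members were called in that step in each ligand, beside 34.2% of all genes in CD1530 and 30.3% in AGN.

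On D8.5 the courses of Scx parted. The CD1530 libraries held 1171, 1199 and 1190.4 CPM and the AGN libraries 1716, 1720.4 and 1667 CPM, with no overlap. From D7.5, Scx rose by 0.63 ± 0.04 (log2, SE) in CD1530 and by 1.25 ± 0.04 in AGN. Of the 3 members, 2 were called in this step in CD1530 (36.5% of all genes) and 2 in AGN (42.1% of all genes), Scx and Tnmd each time.

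By D10 Scx had declined, and all 6 libraries lay below those of their ligand on D8.5, at 838, 866 and 869 CPM in CD1530 and 1249.9, 1194 and 1225 CPM in AGN. These D10 levels were 72.3% of the D8.5 mean in CD1530 and 71.9% in AGN. The step from D8.5 to D10 was -0.47 ± 0.04 in CD1530 (adjusted p = 1.09e-13, edgeR) and -0.48 ± 0.04 in AGN (adjusted p = 4.95e-14, edgeR). All 3 members were called in this last step in each ligand, Scx downward and the others upward, while 57.3% of all genes were called in CD1530 and 59.4% in AGN.

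Bop1, the gene around Scx, was compared because the strand setting of the counting is not stated, and reads from unspliced Bop1 RNA could then fall on Scx exons. Bop1 averaged 131 ± 0.68 CPM in PM (SD, n = 3), where Scx was near 6 CPM. On D6.25 Bop1 averaged 114 CPM in CD1530 and 109 CPM in AGN, below PM, and on D6.75 114 and 108 CPM. Scx rose in both of these early steps. From D7.5 through D8.5 to D10, Bop1 went from 125 to 174 and 97.8 CPM in AGN. In CD1530 it went from 121 to 143 and 95.7 CPM. In these later steps Bop1 had the direction of Scx. It changed by 0.48 ± 0.04 and then -0.83 ± 0.04 in AGN. In CD1530 it changed by 0.25 ± 0.04 and -0.58 ± 0.04, and all of these changes were called. The part of Bop1 reads in the Scx values was not tested. Reads of the ScxGFP transgene, where it shares sequence with Scx, would count as Scx too, and their part was not tested.

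Mkx (ENSMUSG00000061013) lies on chromosome 18 of GRCm38, from 6934518 to 7004780 on the minus strand, with 4 transcripts and 4095 exon bases. A transcript on the same strand, AC148004.2, covers 201 of these bases, or 4.91%, and is not in the table. Mkx was low in PM, with 1.34, 1.28 and 1.19 CPM (1.27 ± 0.08, SD, n = 3). On D6.25 the libraries held 7.47, 7.69 and 10.2 CPM in CD1530 and 8.33, 7.66 and 8.03 CPM in AGN, overlapping between ligands. The rise was 2.74 ± 0.17 (log2, SE) in CD1530 and 2.65 ± 0.17 in AGN. Every induced library was above every PM library.

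The climb of Mkx then slowed. On D6.75 it stood at 12.1, 12.8 and 13.0 CPM in CD1530 and at 12.1, 10.3 and 8.32 CPM in AGN, a wide spread in AGN. The step from D6.25 was 0.57 ± 0.11 in CD1530 (adjusted p = 2.74e-05, edgeR) and 0.37 ± 0.11 in AGN (adjusted p = 0.00785, edgeR). The AGN call rested on AGN D6.75 replicate 1, the library at 12.1 CPM, since without it the step was 0.23 with an adjusted p of 0.151 (edgeR).

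On D7.5 the ligands had separated, with Mkx at 21.7, 23.5 and 22.3 CPM in CD1530 and at 13.6, 15.2 and 15.0 CPM in AGN. Every CD1530 library lay above every AGN library, on D7.5 and again on D8.5, when the levels were 23.2, 23.5 and 21.4 CPM against 14.4, 17.2 and 17.8 CPM. The step between these days did not pass the test, at 0.01 ± 0.09 in CD1530 (95% interval -0.17 to 0.20, adjusted p = 0.939, edgeR) and 0.15 ± 0.10 in AGN (-0.04 to 0.35, adjusted p = 0.216, edgeR).

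By D10 Mkx stood at 38.7, 34.5 and 36.8 CPM in CD1530 and at 37.5, 33.9 and 40.2 CPM in AGN, above every earlier library of either ligand and overlapping between them. The step from D8.5 was 0.69 ± 0.09 in CD1530 (adjusted p = 9.10e-09, edgeR) and 1.19 ± 0.09 in AGN (adjusted p = 5.74e-15, edgeR). Mkx thus ended 28.9-fold above PM in CD1530 and 29.4-fold above PM in AGN, as ratios of mean CPM.

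Tnmd was at the counting floor, taken as at most 3 counts in each library of a group, in PM and in both ligands on D6.25 and D6.75. In these 15 libraries 10 had 0 counts of Tnmd and the highest had 3, and 3 counts were worth 0.128 to 0.168 CPM there. Expression below that level was not detectable at this depth. On D7.5 the CD1530 libraries had 4 counts each, or 0.218, 0.185 and 0.173 CPM, and the AGN libraries 5, 8 and 17 counts, or 0.276, 0.372 and 0.839 CPM. These were the earliest groups above the floor. Against the floor of D6.75 their observed means were at least 1.44-fold higher in CD1530 and at least 3.34-fold higher in AGN. These folds leave out counting error, and in each CD1530 library the 95% interval of the 4 counts reached below the floor. The step from D6.75 was called in AGN (adjusted p = 0.000111, edgeR) and, by a margin, in CD1530 (adjusted p = 0.0465, edgeR). The CD1530 call was lost when any library of CD1530 D7.5, or replicate 1 or 3 of CD1530 D6.75, was left out, with adjusted p up to 0.135.

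From D7.5 onward Tnmd increased steeply. On D8.5 the libraries held 1.62, 1.97 and 2.77 CPM in CD1530 and 3.85, 5.20 and 4.82 CPM in AGN, from 29 to 142 counts. Every AGN library was above every CD1530 library, including the deepest library, AGN D8.5 replicate 1, which had the lowest Tnmd level of its group. The step from D7.5 was 3.43 ± 0.41 (log2, SE) in CD1530 (adjusted p = 5.39e-09, edgeR) and 3.17 ± 0.29 in AGN (adjusted p = 5.25e-12, edgeR).

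On D10 Tnmd reached 4.50, 5.17 and 5.68 CPM in CD1530 and 10.9, 10.7 and 9.56 CPM in AGN, again with no overlap. The step from D8.5 was 1.27 ± 0.23 in CD1530 and 1.19 ± 0.19 in AGN, with adjusted p of 8.04e-06 and 5.90e-07 (edgeR). Relative to the floor in PM, Tnmd on D10 was at least 34.3-fold higher in CD1530 and at least 69.7-fold higher in AGN. Tnmd is X-linked, and the 33 libraries all carried Xist, the RNA of the inactive X chromosome, at 1.54 to 7.20 CPM, beside 4 Y-linked genes. These 5 genes summed to 53.3 to 55.9 CPM in CD1530 and 33.8 to 38.1 CPM in AGN on D8.5, and to 42.3 to 45.4 CPM and 32.7 to 34.3 CPM on D10. Of the 5, 4 were called higher in CD1530 on D8.5 and 3 on D10, beside 40.0% and 46.6% of all genes called in either direction. Tnmd was lower in CD1530 on both days. Y-linked genes made up most of the sums, with medians over the libraries of 13.7 CPM for Ddx3y and 13.3 CPM for Uty against 2.92 CPM for Xist. The part of the 5 genes in the Tnmd values was not tested.

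**Figure D2:**
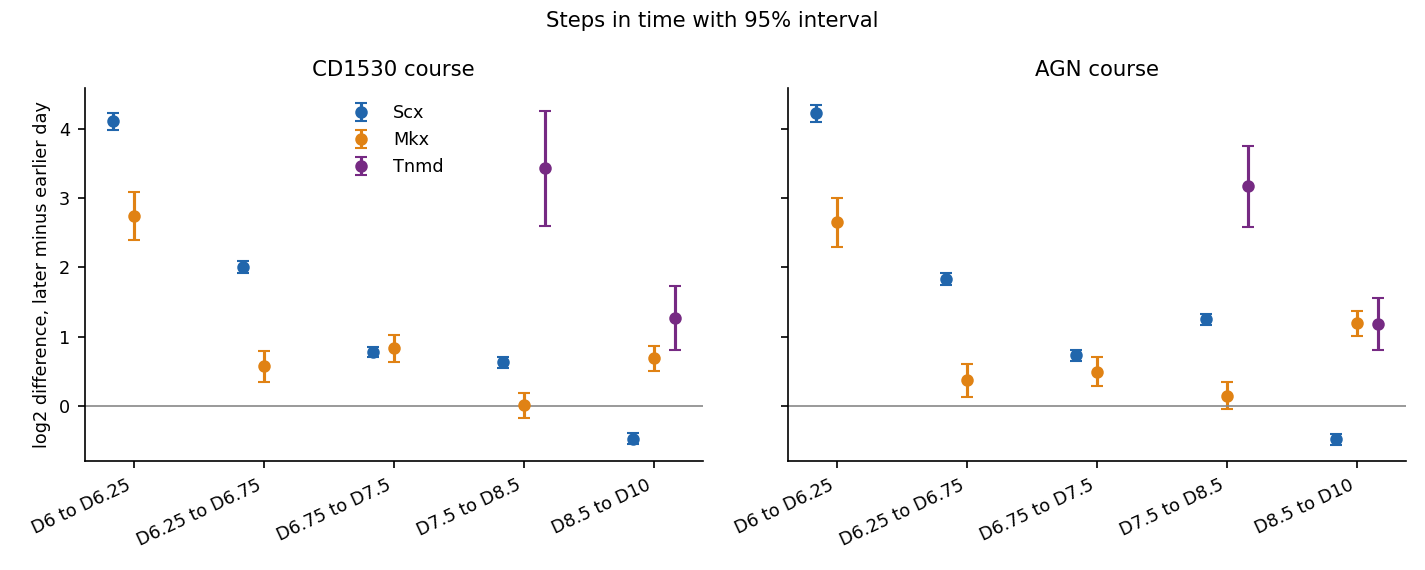
Log2 difference between consecutive days (later minus earlier) in CD1530 and AGN for each gene, with 95% intervals from edgeR. Tnmd is drawn only where both days were above the counting floor. Scx steps run from over 4 on D6.25 to below 0 on D10, and the Mkx intervals cross 0 in the D7.5 to D8.5 step.

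Each gene reached its highest group mean on the same day under both ligands, D8.5 for Scx and D10 for Mkx and Tnmd. The Scx peak of 1187 ± 14.1 CPM in CD1530 and 1701 ± 29.96 CPM in AGN was 185-fold and 265-fold the PM mean. On D7.5 Scx had covered 64.6% of its highest mean in CD1530 and 41.9% in AGN, and Mkx 61.4% and 39.3%. Tnmd by contrast stood at 3.76% and 4.77% of its highest mean on D7.5. On D8.5, when Scx was highest, Tnmd was at 41.4% of its D10 level in CD1530 and 44.5% in AGN. D10 was the last day sampled, so the Mkx and Tnmd maxima are those within the days measured.

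**Figure D3:**
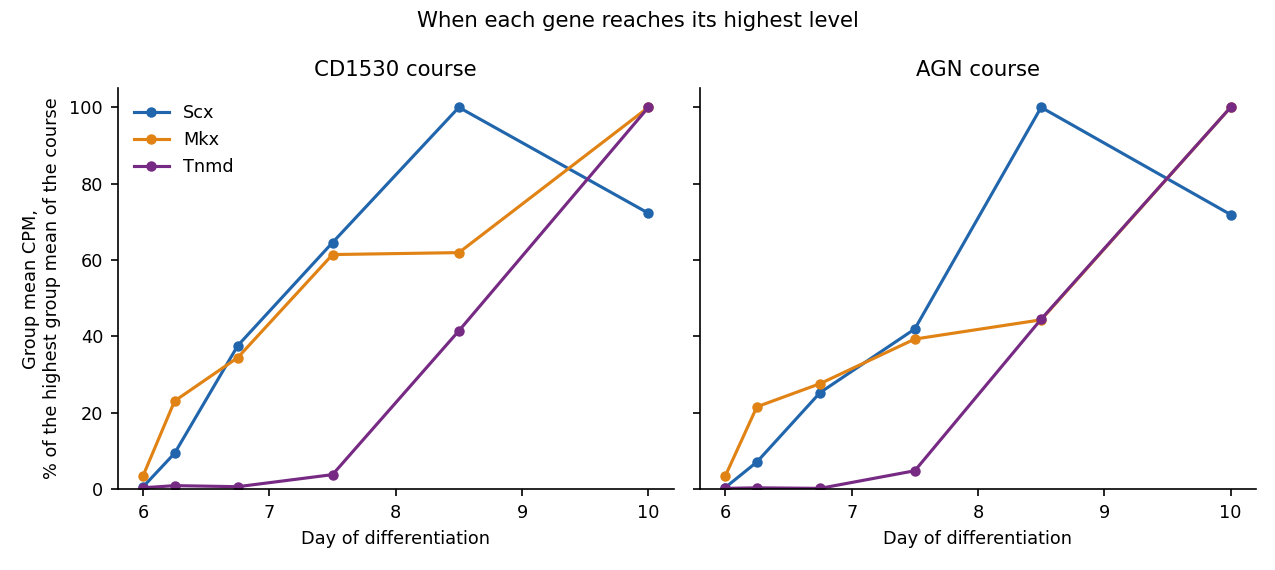
Group mean CPM of each gene as a percentage of the highest group mean of its course, from PM on D6 to D10, for CD1530 and AGN. Scx reaches 100% on D8.5 and is near 72% on D10, and Mkx and Tnmd reach 100% on D10.

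Levels were compared between genes per kilobase of exon (RPKM). On D8.5 the Scx level was 591 RPKM in CD1530 and 848 RPKM in AGN, against 5.54 and 4.03 RPKM for Mkx and 1.57 and 3.42 RPKM for Tnmd. On D10 Scx was at 427 and 609 RPKM, Mkx at 8.95 and 9.08 RPKM and Tnmd at 3.78 and 7.68 RPKM. In every induced group Scx was the most abundant of the 3 and Tnmd the least.

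The ligands were compared at each time point, and the numbers of members called were read beside those of all genes. On D6.25 edgeR called 0 of 3 members (1.92% of all genes), with 1 at an unadjusted p under 0.05 and 0 called by DESeq2. On D6.75 it called 0 of 3 (18.0% of all genes), again with 1 at an unadjusted p under 0.05 and 0 by DESeq2. The counts were 2 of 3 on D7.5 (26.9% of all genes), 3 of 3 on D8.5 (40.0% of all genes) and 2 of 3 on D10 (46.6% of all genes).

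For Scx the difference, CD1530 minus AGN on the log2 scale, was -0.11 ± 0.04 (SE) on D6.25 and 0.05 ± 0.04 on D6.75, with adjusted p of 0.209 and 0.380 (edgeR). On D7.5 it was 0.10 ± 0.04 (adjusted p = 0.0418, edgeR), a call that other settings did not keep. DESeq2 gave an adjusted p of 0.0630 there, and the call was lost with any library of CD1530 D7.5, or replicate 1 or 2 of AGN D7.5, left out, with adjusted p up to 0.183. On D8.5 the direction was the opposite one, -0.52 ± 0.04 (adjusted p = 9.44e-15, edgeR), and on D10 it was -0.51 ± 0.04 (adjusted p = 1.00e-14, edgeR). Scx, the tendon transcription factor, was therefore higher in the fibrocartilage protocol at both late times, in 3 of 3 libraries each.

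For Mkx the difference was 0.08 ± 0.12 on D6.25 (adjusted p = 0.879, edgeR) and 0.29 ± 0.11 on D6.75 (adjusted p = 0.0556, edgeR). The D6.75 difference was called without CD1530 D6.75 replicate 1 (0.31) or AGN D6.75 replicate 1 (0.43). It was largest on D7.5, at 0.62 ± 0.09 (adjusted p = 1.48e-06, edgeR), and was 0.48 ± 0.09 on D8.5 (adjusted p = 5.00e-05, edgeR). On D10 it was -0.02 ± 0.08, with a 95% interval of -0.19 to 0.15 (adjusted p = 0.869, edgeR).

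For Tnmd no difference is given at D6.25 and D6.75, where both ligands were at the floor and neither test was called (adjusted p = 0.953 and 0.828, edgeR). The difference was -1.37 ± 0.55 on D7.5 (adjusted p = 0.0596, edgeR), -1.11 ± 0.23 on D8.5 (adjusted p = 0.000111, edgeR) and -1.02 ± 0.19 on D10 (adjusted p = 1.57e-05, edgeR). The D7.5 value rested on counts of 4 to 17 and passed the threshold in DESeq2 and without AGN D7.5 replicate 1. Without the deepest library, AGN D8.5 replicate 1, the D8.5 differences were -0.51 for Scx, 0.38 for Mkx and -1.25 for Tnmd, all still called.

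**Figure D4:**
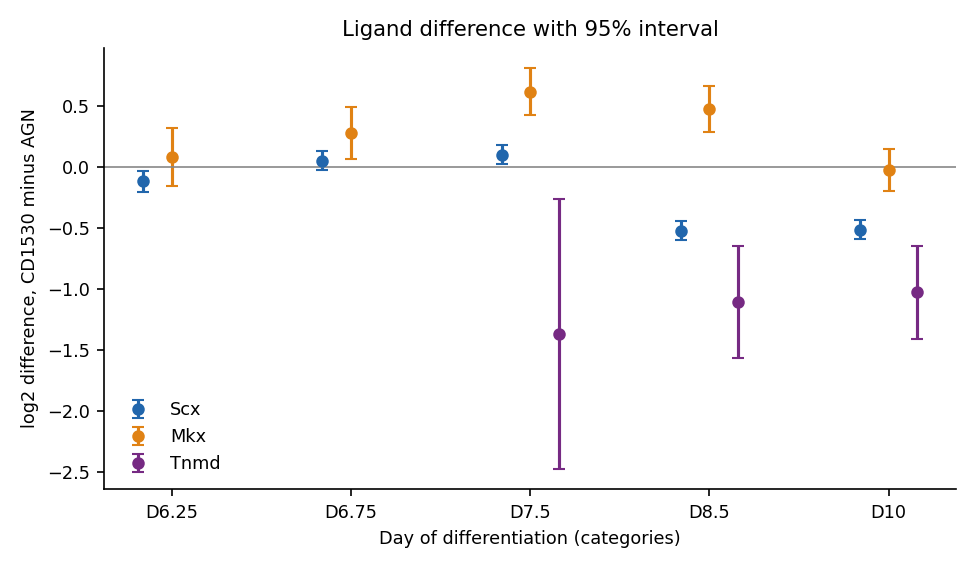
Log2 difference between CD1530 and AGN (CD1530 minus AGN) at each day for the 3 genes, with 95% intervals from edgeR, and Tnmd only where a ligand was above the counting floor. Scx changes side between D7.5 and D8.5, Mkx is above 0 on D7.5 and D8.5 and at 0 on D10, and Tnmd is below 0 on D7.5, D8.5 and D10.

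Whether the ligand difference itself changed with time was tested as an interaction. Over the 5 time points it changed for Scx (adjusted p = 1.16e-14, edgeR) and Mkx (adjusted p = 0.000278, edgeR) and was not called for Tnmd (adjusted p = 0.709, edgeR), beside 48.8% of all genes called. Between D7.5 and D8.5 the Scx difference changed by -0.62 ± 0.05 (adjusted p = 1.67e-11, edgeR), 1 of 3 members called beside 11.5% of all genes. Between D8.5 and D10 the Scx difference changed by 0.01 ± 0.05 (95% interval -0.10 to 0.12, adjusted p = 0.944, edgeR), so a different fall of Scx between ligands was not detected within that interval. The Mkx difference changed over that last interval by -0.50 ± 0.13 (adjusted p = 0.0022, edgeR), the only call among the 3 members beside 26.8% of all genes. Earlier, 0 of 3 members were called from D6.25 to D6.75 (4.82% of all genes) and 0 of 3 from D6.75 to D7.5 (9.00% of all genes). In these early intervals Scx (0.17 ± 0.06, D6.25 to D6.75) and Mkx (0.34 ± 0.14, D6.75 to D7.5) had an unadjusted p under 0.05. The Scx change was called without CD1530 D6.75 replicate 2 (0.21) or 3 (0.19), and the Mkx change without AGN D6.75 replicate 3 (0.46). With all libraries DESeq2 called 0 of the members in either interval.

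Ranked over the 11 groups, the Scx levels ran from AGN D8.5 through AGN D10 and CD1530 D8.5 to CD1530 D10, CD1530 D7.5, AGN D7.5, the D6.75 and D6.25 groups and PM. Neighbours in this order that did not differ beyond their spread were AGN D10 and CD1530 D8.5 (adjusted p = 0.340, edgeR) and the ligand pairs on D6.75 and D6.25. For Mkx the order was AGN D10, CD1530 D10, CD1530 D8.5, CD1530 D7.5, AGN D8.5, AGN D7.5, the D6.75 and D6.25 groups and PM. The undistinguished Mkx neighbours were the ligand pairs on D10, D6.75 and D6.25, D8.5 and D7.5 within each ligand, and AGN D7.5 with CD1530 D6.75 (adjusted p = 0.0987, edgeR). For Tnmd the order was AGN D10, CD1530 D10, AGN D8.5, CD1530 D8.5, AGN D7.5 and CD1530 D7.5, followed by the groups at the floor. CD1530 D10 and AGN D8.5 did not differ beyond their spread (adjusted p = 0.469, edgeR), nor did the ligands on D7.5, nor CD1530 D7.5 and CD1530 D6.25 (adjusted p = 0.0645, edgeR). Tnmd in AGN was thus at a level on D8.5 near that of CD1530 on D10.

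Close relatives did not all follow the courses of the members. Tcf15 (Paraxis), the helix-loop-helix factor of somites most related to Scx, was at 14.1 ± 0.44 CPM in PM and highest on D7.5 in CD1530 (51.8 ± 7.48 CPM) and on D6.75 in AGN (39.6 ± 1.34 CPM). It then fell, to 18.2 ± 0.72 and 10.1 ± 0.81 CPM on D10, where it was higher in CD1530 by 0.85 ± 0.13 (adjusted p = 1.10e-06, edgeR), opposite in sign to Scx. Cnmd (Chondromodulin), the cartilage relative of Tnmd, stayed at or near the counting floor through D7.5. On D10 it averaged 4.10 ± 0.75 CPM in AGN and was at the floor in CD1530, at least 25.3-fold higher in AGN. Irx1, Irx2, Irx3 and Irx5, homeobox relatives of Mkx, were all higher in CD1530 on D10, by 0.89, 1.12, 0.69 and 0.86 on the log2 scale. Of the 6 relatives 5 were thus higher in CD1530 and 1 lower on D10, with a median of 0.85 against -0.02 over all genes, of which 46.6% were called.

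**Figure D5:**
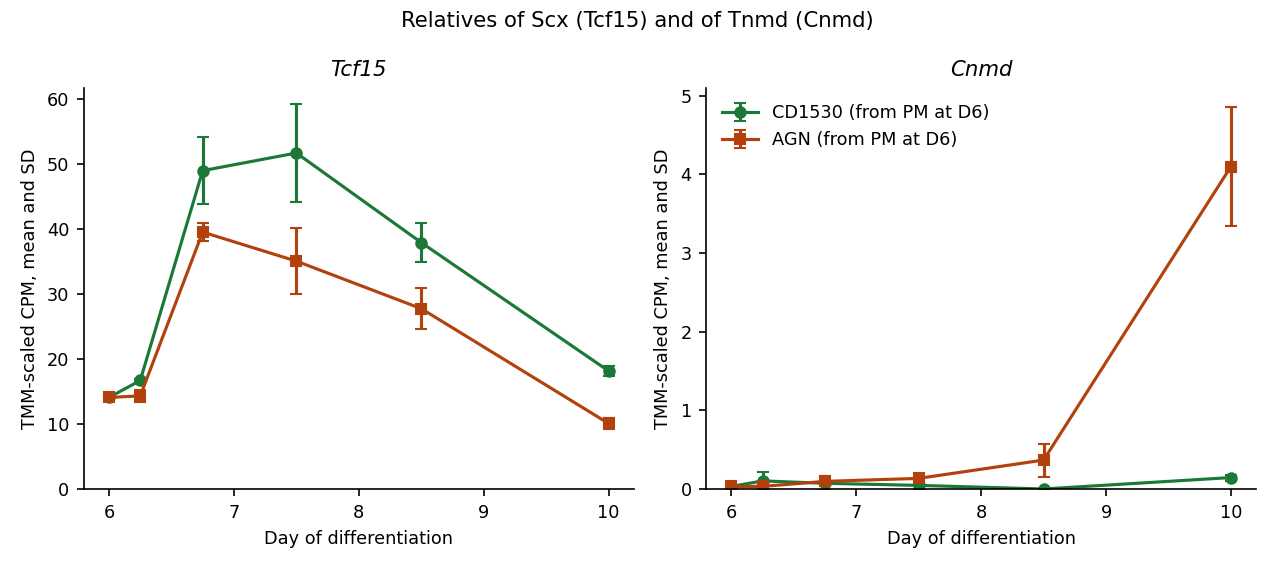
TMM-scaled CPM of Tcf15 and Cnmd (mean and SD of 3 libraries, linear axes from 0) against the day of differentiation, in the CD1530 and AGN courses that start from PM. Tcf15 is highest on D6.75 or D7.5 and is higher in CD1530 from D6.75 on, and Cnmd is above the floor late in AGN.

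Among 15 other transcription regulators of tendon and sclerotome, 14 were in the table. On D10, 4 were higher and 9 lower in CD1530, with a median of -0.42 against -0.02 over all genes, of which 46.6% were called. Egr1 (0.65 ± 0.05) was higher in CD1530, while Six2 (-1.36 ± 0.21) and Eya1 (-1.08 ± 0.08) were lower. Over the last step 5 of them rose and 6 fell in CD1530, and 6 rose and 4 fell in AGN, beside 57.3% and 59.4% of all genes called in either direction.

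The matrix genes of tendon moved differently from Scx after D8.5. All 17 matrix genes in the table, of 18 listed, rose between D8.5 and D10 in CD1530, where 27.4% of all genes were called higher, and all 17 rose in AGN, where 29.9% were. Col1a1 and Col1a2, which encode type I collagen, rose by 1.13 ± 0.10 and 1.09 ± 0.07 in CD1530 and by 1.18 ± 0.10 and 1.30 ± 0.07 in AGN (log2, SE). Mkx and Tnmd went up in this step with them, and Scx went down. Between ligands on D10, 4 matrix genes were higher and 10 lower in CD1530, with a median of -0.46, beside 46.6% of all genes called. Col1a2 (-0.61 ± 0.07), Col3a1 (-0.46 ± 0.04) and Col14a1 (-0.66 ± 0.07) were lower in CD1530, the direction of Scx and Tnmd, and Col12a1 (0.47 ± 0.17) was higher.

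Readouts of the inducing pathways were measured beside the members. Of 15, 13 rose and 2 fell from D6 to D6.25 in CD1530, and 13 rose and 1 fell in AGN, in the step in which Scx and Mkx first increased and 67.8% and 68.1% of all genes were called. Skil, a target of TGFβ, rose by 0.63 ± 0.05 in CD1530 and by 0.50 ± 0.05 in AGN. Smad7, a feedback inhibitor of the pathway, fell by 0.18 in CD1530. On D10, 10 of the 15 were higher in CD1530 and 3 lower, with a median of 0.30, beside 46.6% of all genes called. The retinoid and hedgehog readouts of the list were singled out after their values were seen. Among them the retinoic acid targets Rarb, Cyp26a1, Cyp26b1 and Dhrs3 were higher in CD1530 by 5.63, 6.11, 2.44 and 4.94 on the log2 scale. Gli1 (-0.73 ± 0.07), Ptch1 (-0.98 ± 0.08) and Hhip (-1.45 ± 0.08), all hedgehog targets, were lower in CD1530, as were Scx and Tnmd.

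Cartilage markers summed lower in CD1530 than in AGN on D8.5 and D10, the direction of Scx and Tnmd. On D7.5 they already did, at 536 to 558 CPM in CD1530 and 754 to 792 CPM in AGN, while Scx was not lower in CD1530. The summed level of the 5 markers in the table (Sox9, Col2a1, Acan, Matn4 and Col9a1, of 6 listed) was 413 to 433 CPM in CD1530 and 1153 to 1193 CPM in AGN on D8.5. On D10 it was 235 to 241 CPM in CD1530 and 3077 to 3213 CPM in AGN, and none of the 5 was at 0 in a group. Sox9 also belongs to the list of regulators, as do Pax1 and Pax9. Pluripotency markers, 4 in the table, summed to 155 to 161 CPM in CD1530 and 237 to 248 CPM in AGN on D10, against 1796 to 1827 CPM in PM. Neural markers, 4 in the table, summed to 63.7 to 67.0 CPM in CD1530 and 13.1 to 14.6 CPM in AGN on D10. Neurog2 was at 0 in all 3 AGN libraries. Muscle markers, 4 in the table, summed to 5.00 to 5.51 CPM in CD1530, with Myod1 at 0 in all 3 libraries, and to 4.88 to 5.13 CPM in AGN. Endothelial markers summed to 143 to 158 CPM and 134 to 143 CPM, and the sclerotome markers Pax1, Pax9 and Nkx3-2 to 19.1 to 20.6 CPM and 49.0 to 49.2 CPM. The paraxial mesoderm markers summed to 95.4 to 102 CPM and 108 to 115 CPM. Most of them were nonetheless lower than in PM, which these sums do not show. Their median log2 difference from PM on D10 was -3.45 in CD1530 and -1.53 in AGN, against 0.043 and -0.0025 over all genes. The part of these other cell types in the differences of Scx, Mkx and Tnmd was not tested.

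Genes with the most similar course were named by Pearson's r of log2(CPM + 1) over the 11 group means, as a description. For Scx these were Pcdh18, Pbx3, Slc43a3, Fli1 and Crmp1, with r from 0.989 to 0.996 among 12013 genes with a group mean of at least 5 CPM. Pcdh18, a protocadherin, went from 12.1 CPM in PM to 228 CPM in AGN D8.5 and 170.2 CPM in AGN D10, with a peak and decline as in Scx. For Mkx they were Irf2bpl, Fam102b, Rilpl1, Ehd2 and Thbs1, with r from 0.987 to 0.989. Thbs1, a matricellular glycoprotein, went from 10.8 CPM in PM to 941 CPM in CD1530 D10 and 1102 CPM in AGN D10. For Tnmd they were Tpd52l1, Erich3, Erp27, Fgf9 and Slc30a10, with r from 0.978 to 0.985 among 14052 genes with a group mean of at least 1 CPM. Among the members, r was 0.92 between Scx and Mkx, 0.60 between Scx and Tnmd and 0.69 between Mkx and Tnmd. All points share the PM group and the rise after induction, and none of the 5 genes named for a member was among the 5 by Spearman's rho.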

How the data were processed

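RNA was sequenced from 33 cultures in 11 groups of 3, placed by their titles. Per the labels and the study's methods, the authors aligned reads to GRCm38 with STAR and assigned them to genes with featureCounts, and deposited raw counts per gene. How strand and multiply aligned reads were treated, and which annotation was used, is not given in the sources used here. The members and the gene lists were chosen with earlier results of these data known.

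All 33 libraries entered 1 fit across all 17120 genes with a mean per group (R 4.3.3, edgeR 4.0.16, limma 3.58.1: TMM, robust quasi-likelihood F test, Benjamini-Hochberg within each contrast). The edgeR filter on low counts removed 0 genes. Contrasts were CD1530 against AGN at 5 time points, 5 steps per ligand, each induced group against PM, interactions, and 55 pairs of groups for the order of levels. A group with at most 3 counts in each library was treated as at the floor. Folds against it divide the mean CPM of the other group by the CPM of 3 counts. They are lower bounds for the observed counts only and do not cover counting error. RPKM uses merged exon lengths from GENCODE M21, in which all 17120 identifiers were found. The methods call the replicates biological without saying what separated them, so p-values measure the spread between these samples.

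Named genes were the members, their 5 most similar genes by Pearson's r (predicted genes left out), relatives by family, and listed regulators, matrix genes and pathway readouts, with examples in list order among those that passed. Some listed genes are not reported here by name. The script was tested on simulated data. Each value was recomputed with DESeq2 1.42.0, with its size factors or library size alone as scaling, unfiltered or filtered at 1 CPM (3 libraries or more), without the robust option, on just the groups involved, with a replicate block, and with every library left out once.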

Additional observations from a re-analysis of the deposited data

Results flagged for a closer look

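For Scx and Mkx the effect of the ligand differed between time points by a test of the difference itself. The test over all 5 time points gave an adjusted p of 1.16e-14 for Scx and of 0.000278 for Mkx (edgeR). For Scx every D8.5 library lay above every D7.5 library of its ligand, and the rise was larger in AGN. The Scx difference between CD1530 and AGN changed by -0.62 ± 0.05 (log2, SE) from D7.5 to D8.5. Without AGN D8.5 replicate 1, the library with the highest total count, this value was -0.62 as well. For Mkx the difference changed by -0.50 ± 0.13 from D8.5 to D10, and by -0.40 without that library. Every D10 library lay above every D8.5 library of its ligand in Mkx, and the rise was larger in AGN.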

How the results depend on the processing

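Fitting with no filter repeated the same fit, since the filter removed 0 genes, and is not counted here. Of 1108 other recomputed values with a test, 1065 kept their direction and their side of the threshold, 17 lost a call, 9 gained one and 17 changed sign. The day of the highest mean was the same in 210 of 210 recomputations. Of the 35 for each gene and ligand, 33 left out 1 library. Those could hardly move the day, since every library of the highest day lay above every library of the next-highest day. The Scx difference on D7.5 was no longer called with DESeq2 size factors (0.091), library size only (0.090), a fit that is not robust (0.10) or DESeq2 (0.090), and with a library left out it ranged from 0.083 to 0.13. With library size only, Mkx on D6.75 was called (0.30), Mkx on D10 was 0.017 and the Mkx step from D7.5 to D8.5 in CD1530 was -0.033. The Tnmd step from D6.75 to D7.5 in CD1530 (2.46) was not called in the fit that is not robust. Scx on D6.25 was called among the compared groups only (-0.11), and Tnmd on D7.5 with DESeq2 (-1.41). With each library left out, the ligand difference ranged from -0.079 to 0.16 for Mkx on D6.25, -0.012 to 0.10 for Scx and 0.17 to 0.43 for Mkx on D6.75, -1.62 to -0.76 for Tnmd on D7.5 and -0.083 to 0.039 for Mkx on D10. Steps ranged from -0.015 to 0.052 (Mkx, D7.5 to D8.5, CD1530), 0.23 to 0.49 (Mkx, D6.25 to D6.75, AGN) and 1.94 to 5.01 (Tnmd, D6.75 to D7.5, CD1530), and Tnmd on D7.5 against PM in CD1530 from 2.61 to 5.01, not called without PM replicate 2. Changes of the ligand difference ranged from 0.10 to 0.21 (Scx, D6.25 to D6.75), 0.19 to 0.46 (Mkx, D6.75 to D7.5), -3.91 to 0.51 (Tnmd, D6.75 to D7.5), -0.34 to 0.52 (Tnmd, D7.5 to D8.5), -0.0095 to 0.024 (Scx, D8.5 to D10) and -0.076 to 0.31 (Tnmd, D8.5 to D10). The causes were not tested. Fits of the compared groups only gave no value for 13 Tnmd results, since their filter removed Tnmd. With a pseudocount of 0.25, 2 of the 5 genes named for Mkx and 3 of the 5 for Tnmd were kept, and by Spearman's rho 0 of 5 for Scx, Mkx and Tnmd.

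Replicate numbers are shared between groups, but same-numbered libraries did not deviate together: their correlations ran from -0.0821 to 0.0445 between ligands on a day, with 0 of 15 over 0.1, and 13 of 33 libraries correlated best with their own number. With the replicate block the Scx difference on D8.5 was -0.52, 75 of 75 values kept their direction and call, and on D10 7914 genes were called between ligands against 7980 without it. Low counts limit Tnmd before D8.5.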
